A study of Drosophila melanogaster with 8 samples.

Results

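The genes erm (earmuff), opa (odd-paired), hbn (homeobrain) and scro (scarecrow) encode transcription factors of the middle of the temporal series through which medulla neuroblasts (NBs) pass in the Drosophila optic lobe. Dpn peaks were taken from 2 deposited peak lists wherever a peak lay within 1 kb, 5 kb or 20 kb of 1 of these 4 genes, among 13922 protein-coding genes on the 6 arms used (2L, 2R, 3L, 3R, 4 and X). In the list of all larval NBs, made by Targeted DamID (the TaDa list), 17, 19 and 27 of 4282 peaks met these distances. In the list of medulla NBs, made by NanoDam (the NanoDam list), 20, 23 and 33 of 3474 peaks did.

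Both lists measured where Dpn (Deadpan) contacts DNA in brains of larvae at the third instar, by DamID, in which the methylase Dam marks GATC sites near the protein it is brought to. For the TaDa list, larvae carried Dam-Dpn (the FlyORF-TaDa-Dpn line) or Dam alone under wor-GAL4, which drives expression in NBs, with tub-GAL80ts. For the NanoDam list, larvae carried TaDaM-traNLS-vhhGFP, which brings Dam to GFP, under tub-GAL80ts and eyR16F10-GAL4 (labelled ey-GAL4). They were crossed to Dpn-GFP, a tagged Dpn under its own control, or to the w1118 background, which has no tag. The study describes eyR16F10-GAL4 as active in neurons as well as NBs, so that the driver alone does not restrict the signal to NBs. All larvae were raised at a low temperature and shifted before dissection to a higher one, which the methods call permissive. There were 8 libraries of pooled brains, 2 per group, and the authors deposited each list as an average of 2 replicates. No peak therefore carries a replicate error, and every comparison of the lists is a description without a test. The method and the cells profiled changed at the same time from 1 list to the other, and their effects cannot be told apart. The lists hold binding and no expression, so the cell types were not checked against markers.

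The kinds of neuron that a medulla NB makes depend on its temporal transcription factors (tTFs), which follow one another in a fixed order and regulate each other's genes. Dpn is a basic helix-loop-helix protein of the Hes family, generally a repressor of transcription, and is a marker of NBs. erm encodes a zinc finger protein of the Fezf family, which in type II lineages of the larval brain keeps intermediate progenitors from reverting to NBs. opa encodes a zinc finger protein of the Zic family, best known as a pair-rule gene of the embryo. hbn encodes a paired-like homeodomain protein, and scro encodes an NK-2 class homeodomain protein related to mammalian NKX2.1.

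Peaks of both lists lay within 1 kb of all 4 genes, where they did so at 16.5% of protein-coding genes. By list, a peak within 1 kb was found at 26.7% of protein-coding genes in the TaDa list and at 23.1% in the NanoDam list. The wider windows set genes less apart, since 43% and 37.6% of protein-coding genes had TaDa and NanoDam peaks within 5 kb, with 29.6% having both, and 71.7% and 65.5% did within 20 kb, with 59.2% having both. erm and opa had the most peaks of the 4 genes. Within 1 kb, the TaDa list held 5 peaks at erm, 5 at opa, 3 at hbn and 4 at scro. The NanoDam list held 7 peaks at erm, 6 at opa, 3 at hbn and 4 at scro. At least 5 TaDa peaks were found at 0.589% of protein-coding genes. At least 7 NanoDam peaks were found at 0.194% of them and at least 6 at 0.294%. For hbn, 2.13% of protein-coding genes had as many TaDa peaks and 1.69% as many NanoDam peaks. For scro, the shares were 1.03% and 0.855%. These shares were not adjusted for gene length, and longer genes offer more room for peaks. Of the 17 TaDa peaks within 1 kb, 11 lay wholly inside a gene and 5 ran across a gene edge, and of the 20 NanoDam peaks 14 and 4 did. The genes themselves make up most of these windows, so this was to be expected from the choice of peaks. Within 20 kb, 11 of 27 TaDa peaks lay inside a gene and 5 across an edge. Of the 33 NanoDam peaks there, 14 and 4 did.

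**Figure D1:**
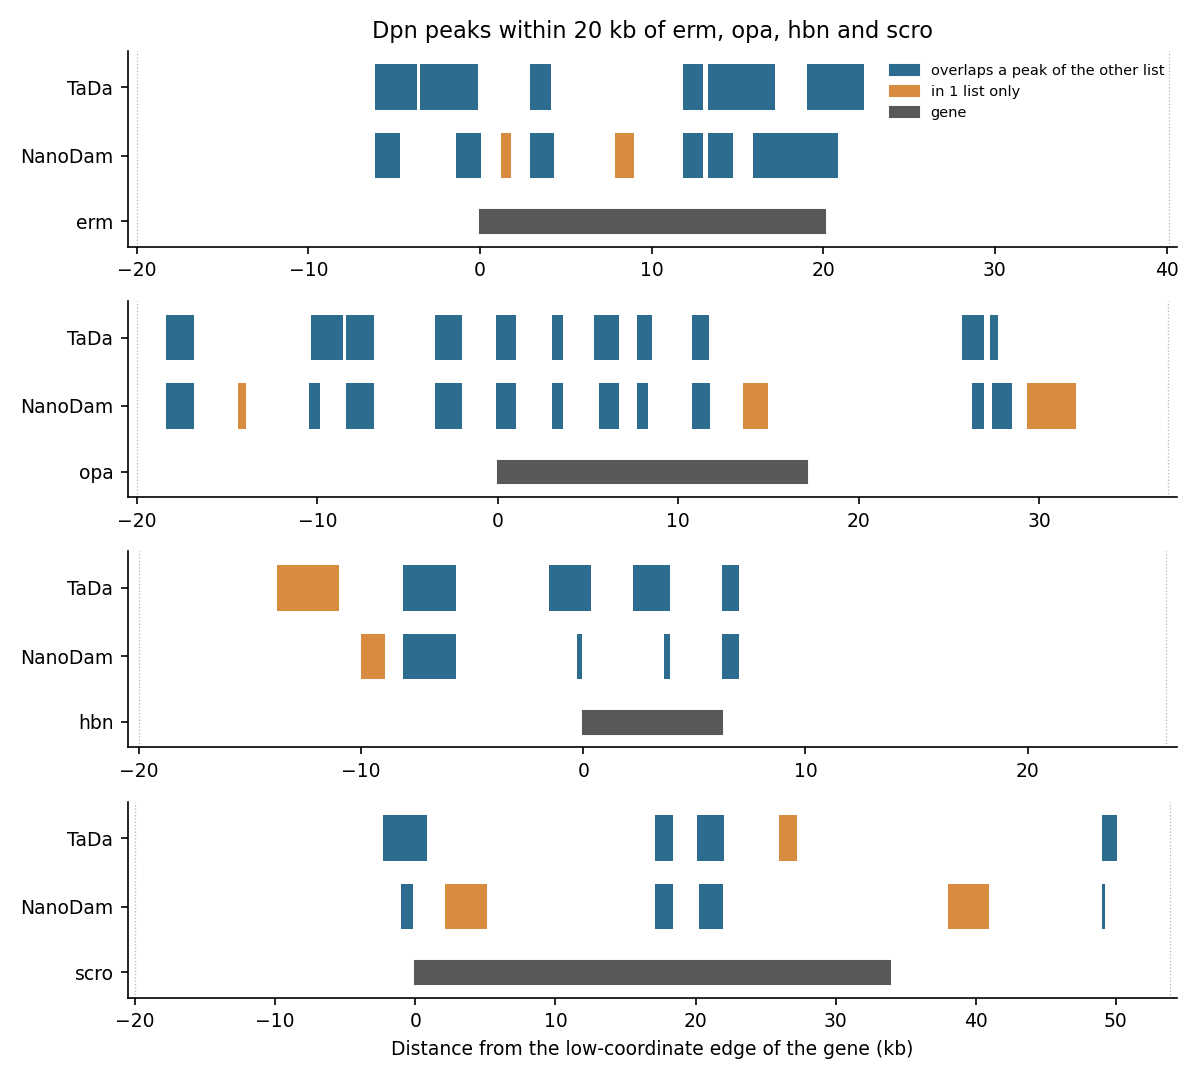
Peaks within 20 kb of erm, opa, hbn and scro in both lists, drawn to scale by distance in kb from the low-coordinate edge of each gene (grey bar); dotted lines mark the 20 kb limits. Blue peaks overlap a peak of the other list and orange peaks are in 1 list only, which holds for 2 of 27 TaDa peaks and 8 of 33 NanoDam peaks.

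By count, most peaks within 1 kb of the 4 genes overlapped a peak of the other list. By length less was common. The part covered in both lists was a median of 50.3% of the length covered in either. At protein-coding genes with at least 2 peaks in each list it was 46.5%. Of the 17 TaDa peaks within 1 kb, 16 (94.1%) overlapped a NanoDam peak by at least 1 bp, where 55.1% of all TaDa peaks did. The exception lay in scro. Of the 20 NanoDam peaks, 16 (80%) overlapped a TaDa peak, where 69.6% of all NanoDam peaks did. The 4 exceptions lay in erm, with 2, and in opa and scro, with 1 each. Without erm, the shares were 91.7% of 12 TaDa peaks and 84.6% of 13 NanoDam peaks. Within 20 kb, 25 of 27 TaDa peaks (92.6%) and 25 of 33 NanoDam peaks (75.8%) were shared. Neighbouring peaks of 1 gene are not independent. Sharing also went with score. Of the unshared peaks in the whole lists, only 11.2% (TaDa) and 7.67% (NanoDam) were in the higher-scoring 25%. Of the peaks within 1 kb of the 4 genes, 47.1% and 55% were in that part. The shares over all peaks are therefore not matched for score, and the part of score in the sharing was not tested.

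The peak score is the value the authors' peak caller gave each peak. It ranks peaks within a list and has no scale common to both, so ranks are given below, rank 1 being the highest score. Among the peaks within 1 kb, 8 of 17 TaDa peaks (47.1%) were in the higher-scoring 25% of their list, a part that with ties held 25.2% of all peaks. In the NanoDam list 11 of 20 (55%) were, where that part held 25.1%. These high ranks were unevenly spread. erm held 4 of the 8 TaDa and 5 of the 11 NanoDam peaks, and scro held 0 and 1.

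At erm, on 2L, the peaks fell into a group at the low-coordinate edge of the gene and a group of higher score in its body and at the other edge. The exception was a NanoDam peak inside the gene from 1951476, with rank 3384. The highest-scoring peak of both lists began at the same base inside the gene. It ran from 1953177 to 1954374 in the TaDa list, with a score of 7.19 and rank 250, and to 1954533 in the NanoDam list, with a score of 9.96 and rank 156. A peak from 1962083 to 1963255 had the same ends in both lists, with rank 405 in the TaDa list and rank 307 in the NanoDam list. From there to beyond the gene edge both lists were nearly continuous but divided differently. The TaDa list had peaks from 1963519 to 1967425 (rank 365) and from 1969285 to 1972590 (rank 560). The NanoDam list had peaks from 1963519 to 1964961 (rank 449) and from 1966163 to 1971113 (rank 510), the last of which touched both TaDa peaks.

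A NanoDam peak in erm had no counterpart in the TaDa list. It ran from 1958135 to 1959237, with a score of 9.02 and rank 281, and lay in the largest gap between TaDa peaks of this locus, 7708 bp from 1954374 to 1962083. By score it stood at place 13 of the 1056 NanoDam peaks that overlap no TaDa peak, of which 7.67% were in the higher-scoring 25% of the list. The other NanoDam peak of erm without a counterpart, from 1951476 to 1952073, had rank 3384 of 3474. Its FDR was 8.93e-05.

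At the low-coordinate edge of erm, the TaDa peak from 1946760 to 1950130 ended 109 bp short of the gene and lay nearer to CG33673. It had rank 2929. The NanoDam peak there ran from 1948857 to 1950319, reached into erm and had rank 1832. The next peaks began at 1944105 in both lists, at Wdr62, which encodes a spindle and centrosome protein, and CG15357. They ended at 1946593 in the TaDa list and at 1945564 in the NanoDam list, so they lay within 5 kb of erm. No further peak was found up to 20 kb, although 9 other protein-coding genes lie in that window.

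At opa, on 3R, the peaks formed a row of the same order in both lists. The TaDa list had 8 peaks between 4842483 and 4864506, all of which carried the same FDR of 3.91e-43, and each of them overlapped a NanoDam peak. Such equal values were common: 30.01% of TaDa peaks and 23.6% of NanoDam peaks had the FDR of an adjacent peak, so an FDR is not separate evidence for each peak. Within the gene or across its edge were 5 peaks of the TaDa list, at ranks from 533 to 1571. The peak across the low-coordinate edge ran from 4852733 to 4853826 in both lists, with rank 1466 of the TaDa list and rank 1171 of the NanoDam list. The highest-scoring TaDa peak of the gene ran from 4863605 to 4864506 (rank 533). In the NanoDam list it ran from 4863605 to 4864583 and had rank 741. The highest-scoring NanoDam peak of the gene ran from 4855829 to 4856453, with rank 352, and its TaDa counterpart, from 4855829 to 4856401, had rank 1536. A NanoDam peak from 4866380 to 4867782 (rank 1791) had no counterpart.

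Outside opa, on its low-coordinate side, lay 3 further TaDa peaks for which opa was the nearest protein-coding gene, and the NanoDam list had a peak at each. The peak from 4849314 to 4850829, 1984 bp from the gene, and the peak from 4844370 to 4845970, 6843 bp away, had the same ends in both lists. The latter was the highest-scoring NanoDam peak within 20 kb of opa, with rank 197, and had rank 719 in the TaDa list. The TaDa peak from 4842483 to 4844227 (rank 2221) was met by a NanoDam peak from 4842319 to 4842938 (rank 1167). The remaining peaks of the 20 kb window lay nearer to CG14659 or to laf. At laf, a TaDa peak from 4880116 to 4880549 had rank 620, while the NanoDam peak from 4880193 to 4881331 had rank 2965. A NanoDam peak from 4882178 to 4884848 (rank 3168) and 1 from 4838411 to 4838880 (rank 1488) had no counterpart.

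At hbn, on 2R, both lists had 3 peaks at the same places, but 2 of the 3 NanoDam peaks were narrow. Across the low-coordinate edge, the TaDa peak ran from 20953134 to 20955005 (1872 bp, rank 1255). The NanoDam peak lay inside it from 20954379 to 20954609 (231 bp, rank 542) and stopped 59 bp before the gene. Within the gene, the TaDa peak ran from 20956911 to 20958574 (1664 bp, rank 630) and the NanoDam peak from 20958299 to 20958574 (276 bp, rank 295). Only 0.518% of NanoDam peaks were 231 bp wide or less, and 1.18% were 276 bp wide or less. At the high-coordinate edge, the peaks began together at 20960893 and ended at 20961660 and 20961699. This was the peak of highest score at hbn in the TaDa list, with rank 319, and of lowest score in the NanoDam list, with rank 1137.

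The 5 kb window of hbn added no peak. In the 20 kb window each list had 2 further peaks, and all of them lay nearer to Act57B, an actin gene of muscle. The peak from 20946563 to 20948951 had the same ends in both lists and ranks 900 and 747. A TaDa peak from 20940867 to 20943682 (rank 2628) and a NanoDam peak from 20944661 to 20945738 (rank 3401) overlapped no peak of the other list.

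At scro, on 3L, the TaDa peaks within 1 kb ranked near the middle of the list (47.2% to 60.6%), below nearly all those at the other 3 genes. The 4 TaDa peaks within 1 kb had ranks from 2023 to 2596 of 4282, and at the other 3 genes only the peak of rank 2929 at the edge of erm ranked lower. Among as many peaks of each list, the 1737 of highest score, no TaDa peak remained at scro. At the low-coordinate edge, a TaDa peak ran from 24721857 to 24724974 (3118 bp, rank 2552). The NanoDam peak there ran from 24723128 to 24723983 (856 bp), 179 bp from the gene, and its rank was 548. Inside the gene, a peak from 24741271 to 24742533 had the same ends in both lists, with ranks 2023 and 2033. The next ran from 24744249 to 24746168 in the TaDa list (rank 2596) and from 24744424 to 24746146 in the NanoDam list (rank 2856).

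Each list also had a peak of its own in scro. It ran from 24750148 to 24751411 in the TaDa list (rank 2354) and from 24726307 to 24729262 in the NanoDam list (rank 2942). The FDR of the latter was 0.00101, so it was lost at an FDR below 0.001, and the NanoDam length within 1 kb of scro then fell from 6764 to 3808 bp. No other protein-coding gene lies within 20 kb of scro. A NanoDam peak from 24762166 to 24765074 (rank 2022) lay 4130 bp beyond the gene and had no counterpart. At 15120 bp both lists had a peak that began at 24773156. It was 1055 bp wide with rank 1892 in the TaDa list and 215 bp wide with rank 584 in the NanoDam list.

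The members next to each limit were as follows. The farthest peak within 1 kb was the NanoDam peak 179 bp from scro, and the nearest beyond it lay 1984 bp from opa in both lists. Next to the 5 kb limit were the NanoDam peak 4675 bp from erm and the peaks 5717 bp from hbn. Next to the 20 kb limit were the peaks 16815 bp from opa and a NanoDam peak 22571 bp from it.

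The length covered by peaks was compared between the lists in each window. At erm, peaks covered 9248 bp within 1 kb in the TaDa list and 11706 bp in the NanoDam list, which is 41.8% and 52.9% of the window. As large a share was covered at 4.27% of protein-coding genes in the TaDa list and at 1.62% in the NanoDam list. With the 5 kb window the order turned, to 14310 bp and 12414 bp. The 5 kb window takes in the TaDa peak from 1944105 and more of that from 1946760, both of which lie outside the gene. At opa the NanoDam list covered more in every window, with 4794 and 5793 bp within 1 kb, 6310 and 7309 bp within 5 kb and 12871 and 16025 bp within 20 kb, the TaDa list given first. Within 1 kb these were 25.01% and 30.2% of the window, shares reached by 10.5% and 6.62% of protein-coding genes. At hbn it covered less in every window, with 3770 and 1314 bp, 4304 and 1314 bp, and 9509 and 4781 bp. Its shares of the 1 kb window were 45.7% and 15.9%, and 3.31% and 13.3% of protein-coding genes had as much. At scro the lengths were close, with 6260 and 6764 bp, 7565 and 7669 bp, and 8620 and 9922 bp. Its shares of the 1 kb window were 17.4% and 18.9%, reached by 14.6% and 11.7% of protein-coding genes.

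Thus 3 of the 4 genes had more length in the NanoDam list within 1 kb, where 38.9% of protein-coding genes with a peak in either list did. Within 5 kb and 20 kb, 2 of the 4 did, where 39.2% and 39.9% of such genes did. The count within 1 kb fell to 1 when only the higher-scoring 50% of each list was used. Without a replicate value, no difference in length can be set against an error.

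**Figure D2:**
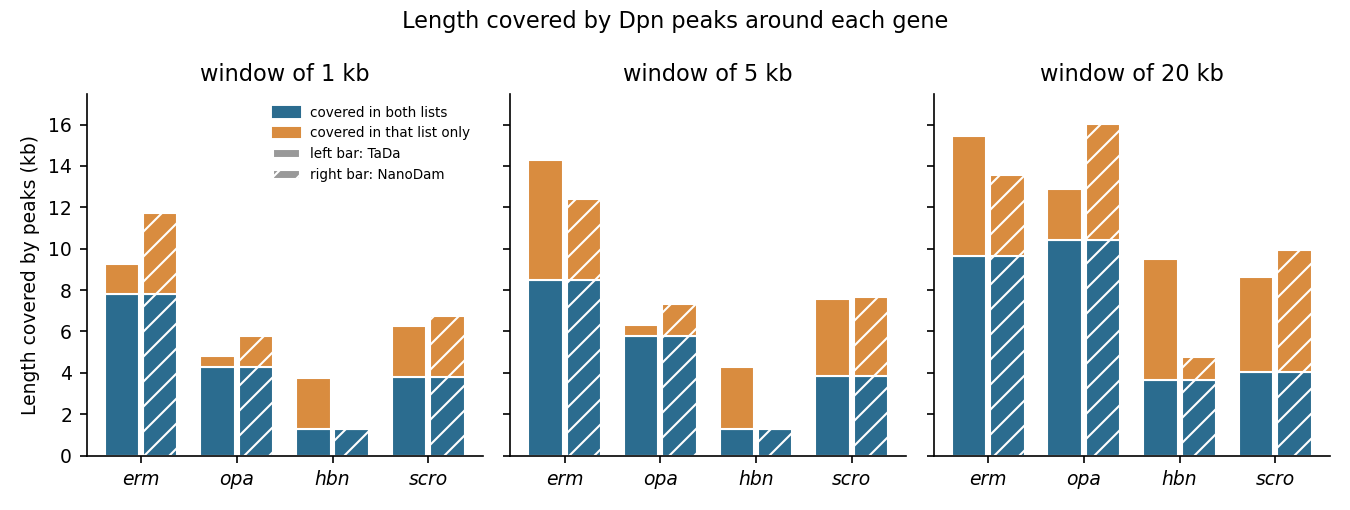
Length covered by peaks (kb) within 1, 5 and 20 kb of each gene. Left bars are the TaDa list and hatched right bars the NanoDam list, and blue is the part covered in both; at hbn the NanoDam bar is nearly all shared, and at erm the higher bar changes between the 1 kb and 5 kb windows.

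The part of the covered length that both lists share differed between the genes. Within 1 kb, the shared length at erm was 7798 bp, 84.3% of the TaDa and 66.6% of the NanoDam length. At opa it was 4261 bp, 88.9% and 73.6%. At hbn it was 1275 bp, 33.8% of the TaDa and 97.0% of the NanoDam length. At scro it was 3808 bp, 60.8% and 56.3%. As a share of the length covered in either list, the median of the 4 genes was 50.3%. Over the 444 protein-coding genes with at least 2 peaks in each list the median was 46.5%, and over the 2 lists as a whole the shared part was 30.2%. The value of the 4 genes lay near that of other genes with several peaks.

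Ranks were compared for peaks that overlap exactly 1 peak of the other list, which in turn overlaps no other. There were 2195 such pairs in all, 46.2% of which ranked higher in the NanoDam list, as percent of the list. Within 20 kb of the 4 genes lay 23 pairs, of which 16 (69.6%) ranked higher in the NanoDam list, and within 1 kb lay 14, of which 10 did. opa gave 9 of the 16. Its 11 pairs within 20 kb rose by a median of 11.1 percentage points and its 5 pairs within 1 kb by 1.48, where the median over all pairs was -1.66. Of the 11, 3 lay nearer to CG14659 or laf than to opa, and these changed by 21.3, 17.0 and -70.9 points. Over the 4 genes the median rise was 4.78 points within 20 kb and 1.42 within 1 kb. At erm 3 of 4 pairs ranked higher, and at hbn and scro 2 of 4 each. The largest rise, 43.8 points, was that of the peak at the low-coordinate edge of scro, and 2.51% of all pairs rose by 40 points or more. The TaDa peak from 4880116 near laf fell by 70.9 points, the most among the 23, and 0.774% of all pairs fell by 70 points or more.

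**Figure D3:**
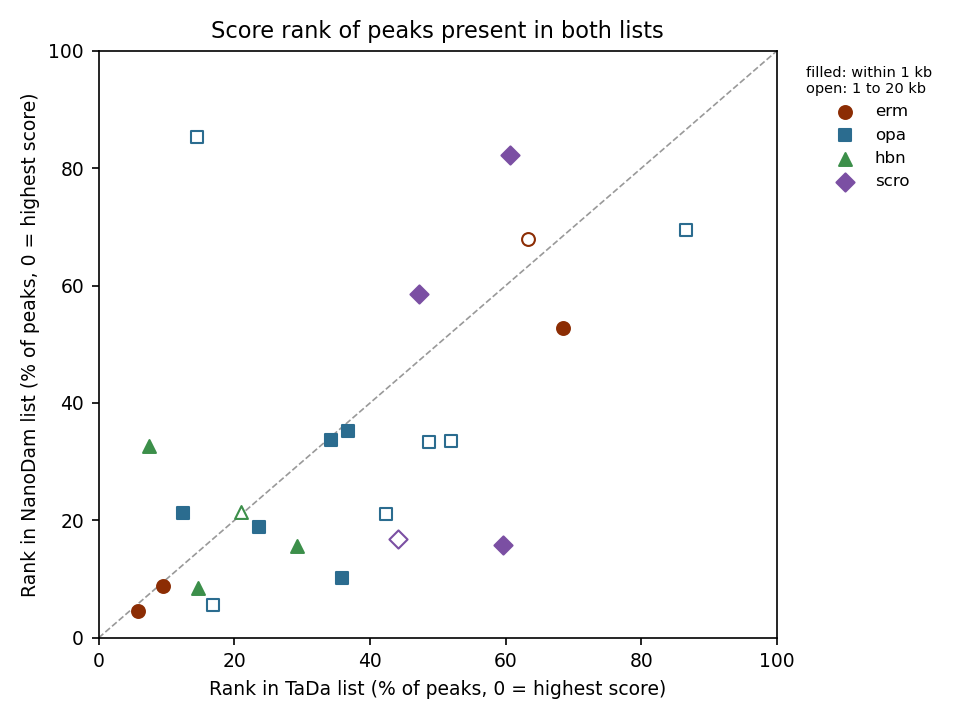
Score rank of the 23 pairs within 20 kb of the 4 genes, as percent of the list (0 is the highest score), in the TaDa list (x axis) and the NanoDam list (y axis). Filled symbols lie within 1 kb of the gene, and the 16 symbols under the dashed line of equal rank are those that ranked higher in the NanoDam list.

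Rank moved with peak width. In 6 of the 23 pairs the NanoDam peak was less than 50% as wide as the TaDa peak, at erm (1), opa (1), hbn (2) and scro (2), and all 6 ranked higher in the NanoDam list. Over all pairs, 11% had such a narrow NanoDam peak, and 76% of these ranked higher. The pair near laf with the TaDa peak from 4880116 was the only 1 of the 23 with a NanoDam peak more than 2 times as wide. Of all such pairs, 13.5% ranked higher in the NanoDam list. The part of peak width in the ranks was not tested. In all, 12 of the 23 pairs were narrower and 5 wider in the NanoDam list, where 44.2% and 37.4% of all pairs were. The same start or end was found in 17 of the 23 pairs (73.9%), where 60.5% of all pairs had 1, and 6 (26.1%) had both, where 18.4% did. In these 6 pairs width could not differ. The pairs of this kind from 1962083 at erm and from 4844370, 4849314 and 4852733 at opa ranked higher in the NanoDam list, and those at Act57B and in scro ranked lower, where 44.4% of all pairs of equal width ranked higher.

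The other genes of the medulla temporal series were hth, SoxN, dmrt99B, ey, slp1, slp2, D, B-H1, B-H2, tll and gcm. Each of these 11 genes, like erm, opa, hbn and scro, had TaDa and NanoDam peaks within 1 kb. They held 42 TaDa peaks, of which 22 (52.4%) overlapped a NanoDam peak. Of these 42 peaks 23 lay at hth, a homeobox gene of the youngest NBs, where 5 were shared, and without hth the share was 17 of 19 (89.5%). At erm, opa, hbn and scro it was 94.1%. The NanoDam share lay the other way, at 80% for erm, opa, hbn and scro and 88.9% for the other tTF genes without hth (90.9% with it). Within 20 kb, 92.6% of TaDa and 75.8% of NanoDam peaks were shared at the 4 genes, where 75.3% and 82.4% were at the other tTF genes without hth. None of the 10 remaining genes had as many TaDa peaks within 1 kb as erm and opa. The most was 4, at ey, the fly Pax6 gene. In the NanoDam list ey also had the most, with 5, against 7 at erm and 6 at opa. These counts were not adjusted for length. Except at ey (25485 bp), the windows of these genes were at most 11595 bp, against 22124 bp at erm and 19167 bp at opa. By covered share of the window the order differed. TaDa peaks covered more at tll (54.8%) and D (45.001%) than at erm (41.8%), and less at the others. The TaDa shares at tll, D, slp1, B-H2 and gcm exceeded that of opa (25.01%). The NanoDam list gave another order. None of these genes had as large a NanoDam share as erm (52.9%), the nearest being dmrt99B (51.5%). The NanoDam shares at dmrt99B, slp2, tll and slp1 exceeded that of opa (30.2%). At ey the shared part was 67.6% of the TaDa and 56.2% of the NanoDam length, and at slp1, a forkhead gene, 88.5% and 93.5%. The pattern of hbn, with most of the NanoDam length shared and little of the TaDa length, was also found at D, a Sox gene, with 72.8% and 21.2%. At gcm, the glial switch gene, 100% of the NanoDam and 31.7% of the TaDa length was shared, and at hth 70.6% and 9.81%. At erm, opa and scro more of the TaDa than of the NanoDam length was shared, and this was also found at ey, B-H1, dmrt99B and slp2. At dmrt99B 17.9% of the NanoDam and 51.3% of the TaDa length was shared, and at slp2 21.9% and 100%.

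**Figure D4:**
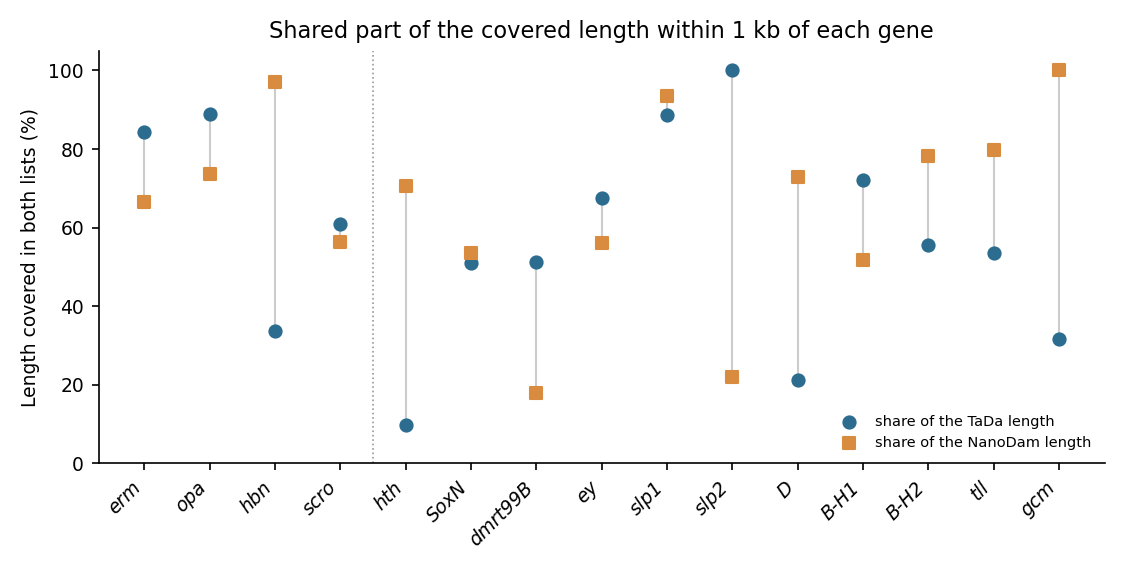
Length within 1 kb of each gene that both lists cover, as percent of the TaDa length (circles) and of the NanoDam length (squares), for erm, opa, hbn and scro (left of the dotted line) and 11 other temporal genes. At hbn, D, hth and gcm the square lies far above the circle. The circle lies above the square at erm, opa and scro and also at ey, B-H1, dmrt99B and slp2.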

How the data were processed

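The authors used damidseq_pipeline with its default options for alignment, averaged 2 replicates into a final log2 profile of fusion over control, and called peaks with find_peaks at min-quant 0.8, unified_peaks set to min and an FDR below 0.01. The methods describe peak calls per replicate, whereas the deposited lists are named as averages, and how the latter were made from the replicates is not given in the sources used here. The authors also measured binding per replicate over the combined peaks and called differences with NOISeq. From this they reported more Dpn binding in medulla NBs at almost all mid-temporal factors, and less at early and late tTFs. The lists hold no replicate values, so that comparison was not repeated here. Versions of these tools, and the build, were not given in the sources used here. The deposited lists give a position, a score and an FDR per peak. The scale of the score is not stated, so scores served only to rank peaks within a list. The methods give an intended depth per library, but the lists carry no read counts, so no counting interval is given, and averaging hides differences between replicates. Positions were read on the RefSeq gene table of Release 6, whose gene extents were used and whose coordinates are not printed. Peaks reached 32078821 on 3R and 27828584 on 3L, near the last genes of that table. Distance is from the nearest ends of peak and gene, and covered length is the part of peaks within the window. Python 3.11.15, numpy 2.4.6, pandas 2.3.3, scipy 1.17.1 and matplotlib 3.10.9 were used, and the overlap functions were tested on simulated data. The genes named are the 4 members, the other temporal genes and the genes nearest to peaks of the windows. The members and lists were chosen with earlier results of these data known. The planned search for motifs in promoters was not run, since no sequence was used here.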

Additional observations from a re-analysis of the deposited data

How the results depend on the processing

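The alternatives were an FDR below 0.001, keeping 50% of each list by score, keeping 1737 peaks of each list by score, joining of peaks closer than 500 bp, peaks that overlap the gene itself, peaks for which the gene is the nearest protein-coding gene, and, for shared peaks, an overlap of 50% of the shorter peak. The number of peaks within 1 kb stayed within 1.5 times the reported one under each of them, from 12 to 17 in the TaDa list and from 14 to 20 in the NanoDam list. The share of TaDa peaks overlapped was 100% with 1737 peaks of each list and otherwise from 92.3% to 94.1%. The share of NanoDam peaks overlapped ran from 77.8% to 85.7%. The number of genes with more NanoDam length was 1 with the higher-scoring 50% of each list, 2 with an FDR below 0.001 and with 1737 peaks of each list, and 3 otherwise. Of the 48 covered lengths at single genes, 7 moved by more than 1.5 times, 5 of them at scro and 2 at hbn. At scro the TaDa length was 1263 bp with the higher-scoring 50% and 0 bp with 1737 peaks of each list, and the NanoDam length was 822 bp with either. At hbn, peaks that overlap the gene covered 2019 bp of the gene in the TaDa list and 293 bp in the NanoDam list. No paired analysis was possible because each list averages its replicates. For the same reason no replicate could be left out.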

Other observations

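The following values were chosen after they were seen. Just beyond the 20 kb window of opa lay a peak that ranked high in both lists. It ran from 4828851 to 4829807 in the TaDa list, with rank 61, and from 4828824 to 4830242 in the NanoDam list, with rank 58, and CG14658 was the nearest protein-coding gene. It ranked above every peak within 20 kb of erm, opa, hbn and scro in both lists. On the low-coordinate side of hbn, Rx, a retinal homeobox gene, held a NanoDam peak from 20930077 to 20931717 (rank 1037) that lay 22951 bp from hbn and overlapped no TaDa peak.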
